A study of Mus musculus with 18 samples.

Results

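The skeletal muscle sarcomere genes described here are 10 of the 49184 genes with a matched transcript in cartilage RNA from mouse knees. They are Acta1, Ttn, Mylpf, Myh4, Myh1, Myh2, Myh7, Tnnt3, Tnni2 and Ckm, which were taken by name as signs of muscle in the tissue, with earlier results of these data known. All 10 were detected in every library and passed the filter on low counts. The RNA came from the femoral condyles of male C57Bl/6J mice aged 12 weeks. In injured mice the anterior cruciate ligament (ACL) of the right knee was ruptured by a single load of 12 N, and the unloaded left knee was the contralateral control. The 18 libraries fall into 5 groups. Of these, 6 were naive, from mice that received no load, and carry day 7 in their labels, so day 1 knees have no naive group of their own day. At each of day 1 and day 7 after rupture there were 3 libraries of injured and 3 of contralateral knees. All groups share strain, sex and tissue, and no group carries a genetic change. Each library was a pool of knees, the labels do not say which libraries share mice, and the naive libraries share mice by the study's scheme. The SDs and tests below therefore measure the spread between pools, and the 6 naive libraries are not 6 independent pools. By the study's scheme more mice were pooled per library at day 7 than at day 1, because cartilage was partly lost by day 7. Effects of pool size and of day cannot be told apart in the injured and contralateral groups. Total estimated counts per library ranged from 16074762 to 41794005.

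The sarcomere is the contractile unit of striated muscle. Thin filaments of actin, switched on by calcium through the troponin complex, slide along thick filaments of myosin heavy chains that carry light chains, and titin spans from the Z disc to the M line as an elastic scaffold. Adult fibres are named by their main heavy chain: Myh4 marks the fastest, type IIb fibres, Myh1 type IIx, Myh2 type IIa, and Myh7 the slow type I fibres. Cartilage has no sarcomeres. Muscle and tendon attach close to the knee's articular surfaces, and in a bulk sample fewer cells of a type and less RNA per cell cannot be told apart.

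The promoters of the 3 members below are shown because these genes are the most abundant actin, the kinase and the most abundant heavy chain of the set, and moved together across libraries. Each is the 250 bases before the RefSeq start site in GRCm38.p6, read 5′ to 3′ on the strand of the gene, with CAGCTG and TATAAA in capitals. CAGCTG is a form of the E-box CANNTG, the element that the MyoD family of muscle transcription factors binds. The Acta1 promoter lies at chr8:123894776-123895025 on the minus strand, the Ckm promoter at chr7:19410844-19411093 on the plus strand and the Myh4 promoter at chr11:67237562-67237811 on the plus strand.
Acta1: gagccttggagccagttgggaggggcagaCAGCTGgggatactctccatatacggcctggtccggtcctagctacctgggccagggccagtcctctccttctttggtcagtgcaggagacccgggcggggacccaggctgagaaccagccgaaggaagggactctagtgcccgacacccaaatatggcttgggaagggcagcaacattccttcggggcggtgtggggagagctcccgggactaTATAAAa
Ckm: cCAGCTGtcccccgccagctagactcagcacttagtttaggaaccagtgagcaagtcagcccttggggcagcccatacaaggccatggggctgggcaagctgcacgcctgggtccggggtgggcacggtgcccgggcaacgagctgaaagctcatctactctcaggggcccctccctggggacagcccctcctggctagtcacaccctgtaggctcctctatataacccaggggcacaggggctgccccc
Myh4: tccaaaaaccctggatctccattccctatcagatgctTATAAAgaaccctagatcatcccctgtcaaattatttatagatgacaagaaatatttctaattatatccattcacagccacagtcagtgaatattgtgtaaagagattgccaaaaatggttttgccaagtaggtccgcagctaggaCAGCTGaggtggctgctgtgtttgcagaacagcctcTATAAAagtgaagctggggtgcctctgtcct
CAGCTG starts 221 bases before the Acta1 start site, 249 before that of Ckm and 67 before that of Myh4. Of the 8 members with a promoter in the table, 4 held CAGCTG, namely Acta1, Ckm, Myh4 and Mylpf, against 12.8% of all 27025 promoters of that length. TATAAA, searched on both strands, stood in 3 of 8 (Acta1, Myh1 and Myh4), against 13% of all. Of the other motifs searched on both strands, CANNTG, which includes CAGCTG, was in 6 of 8 members against 66.0% of all, CATTCC in 4 against 12.6%, the MEF2 site in 3 against 3.0% and the CArG box in 2 against 1.4%. These matches describe the letters of the windows only.

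The fast heavy chains Myh2, Myh1 and Myh4 lie side by side on chromosome 11 (67171027-67197517, 67200052-67224575 and 67238029-67260446 in GRCm38, plus strand) and resemble each other closely. Their coding sequences were 91.0% identical between Myh1 and Myh2, 90.2% between Myh1 and Myh4 and 88.2% between Myh2 and Myh4, but 77.2% to 77.8% identical to that of Myh7 (chromosome 14, 54970684-54994626, minus strand). The longest coding stretch found unbroken in all 3 fast genes was 140 bases, shown because a read from it fits each of them equally. In Myh4 it joins the last 39 bases of exon 14 (chr11:67246503-67246541) and the first 101 bases of exon 15 (chr11:67248446-67248546) of 39 exons, bases 1549 to 1688 of the coding sequence.
Myh4, Myh1 and Myh2 shared: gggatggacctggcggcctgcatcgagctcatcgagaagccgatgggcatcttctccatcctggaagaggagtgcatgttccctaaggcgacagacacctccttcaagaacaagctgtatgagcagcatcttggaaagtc
The next 40 coding bases, 1689 to 1728, separate the genes, with each base that differs from Myh4 in capitals.
Myh4 next: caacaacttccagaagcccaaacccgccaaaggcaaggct
Myh1 next: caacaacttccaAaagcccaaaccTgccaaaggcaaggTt
Myh2 next: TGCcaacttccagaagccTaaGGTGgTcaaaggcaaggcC
Myh1 differed from Myh4 at 3 of these bases and Myh2 at 10. Over whole transcripts, 42.9% of the 31-base windows of Myh1, 34.5% of those of Myh2, 30.4% of those of Myh4 and 27.9% of those of Myh7 also occur in another gene. The partners that share most windows with the 3 fast genes are each other and Myh8, the perinatal heavy chain, and for Myh7 it is the cardiac heavy chain Myh6. Levels of these 4 genes therefore rest in part on how reads were divided between such relatives. The windows of Tnnt3 (chromosome 7, 142498836-142516009, plus strand), Tnni2 (chromosome 7, 142441808-142444410, plus strand) and Mylpf (chromosome 7, 127208890-127214298, plus strand) occur in no other gene. Shared windows made up 0.261% of Ttn (chromosome 2, 76703980-76982547, minus strand), 4.11% of Acta1 (chromosome 8, 123891769-123894751, minus strand) and 13.6% of Ckm (chromosome 7, 19404776-19422841, plus strand).

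Day 7 contralateral replicate 1 stood apart from the other libraries in its composition and in the proportions of the members, as given below, and the comparisons that rest on it are also given without it. The summed estimated counts of the 10 genes made up 0.299% to 1.90% of a library, with a median of 0.665%. The widest 95% Wilson interval of such a share spans 0.0117 percentage points and covers counting error only. The share was lowest in day 7 injured replicate 2 and highest in day 1 injured replicate 3, a 6.34-fold span. On the scale of CPM, the counts scaled to a common library total, after normalization by the trimmed mean of M values (TMM), the summed level spanned 4.52-fold. It averaged 9648 CPM ± 3638 (SD, n = 6) in naive libraries, 8728 ± 2948 (SD, n = 3) in day 1 contralateral, 10620.0 ± 5777 (SD, n = 3) in day 1 injured, 5797 ± 768 (SD, n = 3) in day 7 contralateral and 5547 ± 1778 (SD, n = 3) in day 7 injured libraries. The small SD of the day 7 contralateral group rests on the scaling of its replicate 1, whose TMM factor was 0.696 (0.829 to 1.16 in the other libraries). Before scaling, the shares of that group were 0.353% in replicate 1, 0.617% in replicate 2 and 0.666% in replicate 3. The 3 day 1 injured libraries, at 4771, 10766 and 16323 CPM, covered nearly the whole span by themselves. The day 7 injured libraries held 7102, 3609 and 5931 CPM and overlapped the naive range of 4770.3 to 14674 CPM, of which the median was 10180.0.

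**Figure D1:**
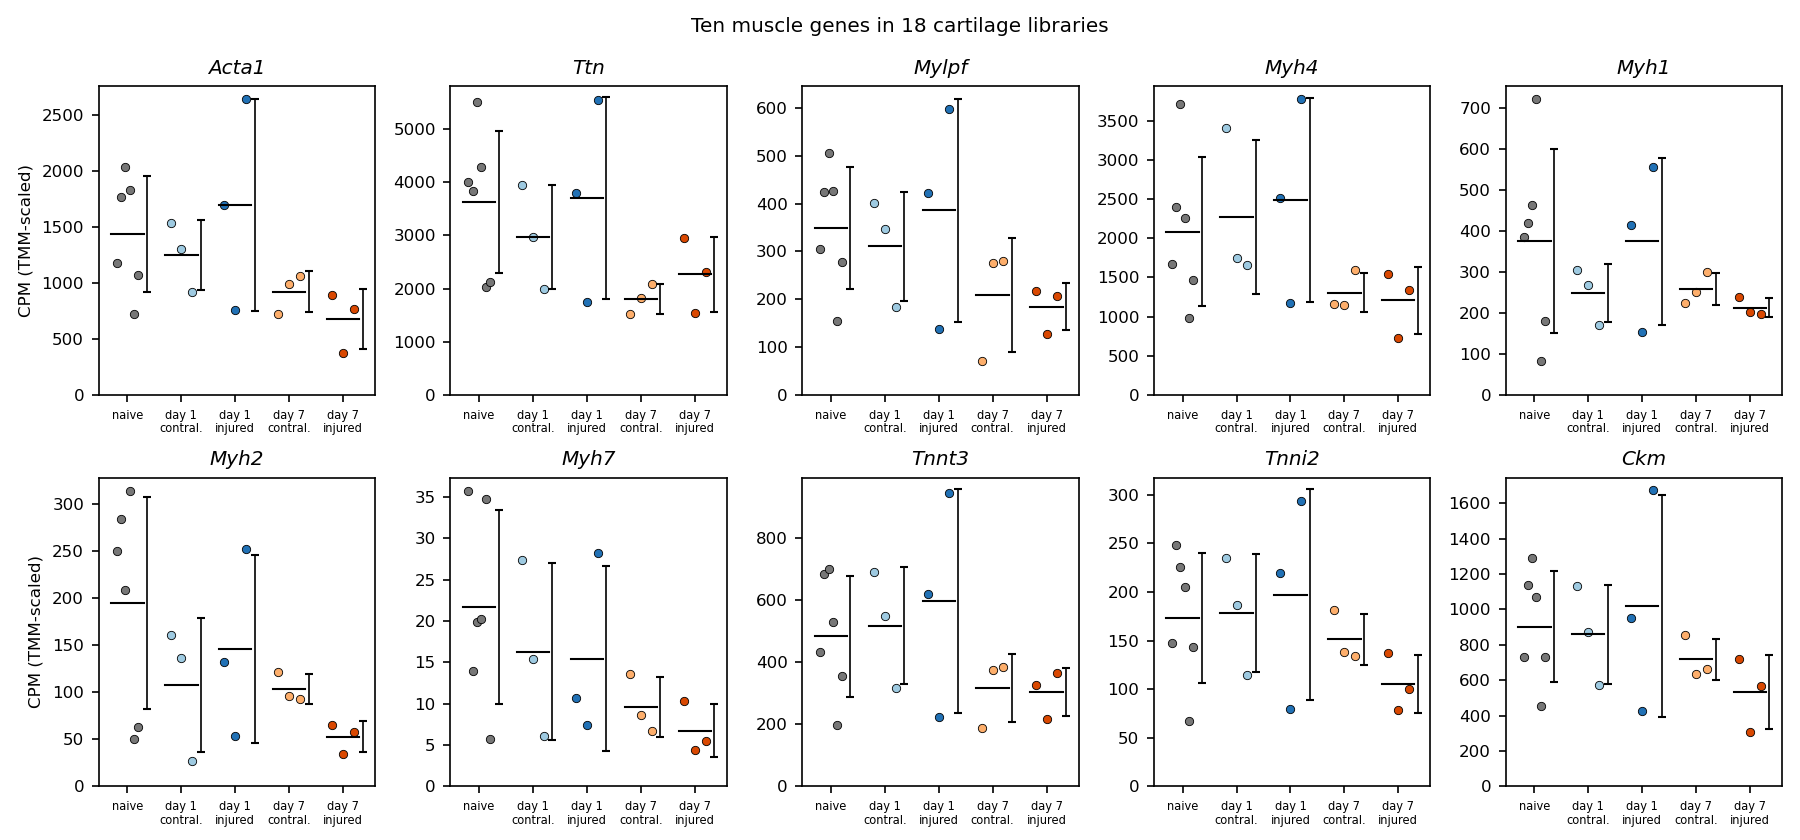
CPM (linear axis from 0, scaled per gene) of each of the 10 genes in the 18 libraries by group (points, 6 naive and 3 in each other group), with the horizontal line at the group mean and the bar at its SD. The day 7 injured libraries overlap the naive ones for each gene, and Myh2 in the 3 day 7 injured libraries (34.3 to 65.5 CPM) lies below all 3 day 7 contralateral ones (93.3 to 122 CPM).

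Per length, as mean TPM (the share of transcript molecules, scaled to a common total) over all 18 libraries, the most abundant member was the thin filament gene Acta1 (569 TPM), followed by Ckm (479), Tnnt3 (340), Mylpf (322), Myh4 (189) and Tnni2 (165). Myh1 (30.6 TPM), Ttn (28.9), Myh2 (12.8) and Myh7 (1.95) were lower. The order is one of means, since the ranges over libraries of the 6 highest overlapped. TPM in these libraries is set largely by a few short RNAs, with 48.9% to 76.4% of it in Rn7s1, Rn7s2, Gm12895 and Gm12896, so libraries are compared below by CPM.

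Acta1 encodes skeletal α-actin, the protein of the thin filament. Its level in naive libraries ran from 719 to 2037 CPM with a median of 1474, and was 1531, 1304 and 916 CPM in day 1 contralateral libraries. Day 1 injured libraries held 1691, 754 and 2643 CPM, day 7 contralateral libraries 719, 986 and 1062, and day 7 injured libraries 893, 377 and 765. The day 7 injured group had the lowest mean (678 CPM ± 269, SD, n = 3, against 1434 ± 518 in 6 naive libraries), and its highest library lay within the naive range. Acta1 varied 7.02-fold over the 18 libraries.

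The regulatory subunits of the thin filament followed Acta1 in most libraries. Tnnt3, fast troponin T, which anchors the complex to tropomyosin, ranged from 190.0 CPM in day 7 contralateral replicate 1 to 945 in day 1 injured replicate 3. Tnni2, fast troponin I, the inhibitory subunit, ranged from 67.6 CPM in naive replicate 5 to 293 in day 1 injured replicate 3. Their day 7 injured means, 303 CPM ± 77.3 and 105 CPM ± 29.9 (SD, n = 3), lay below the naive means of 485 ± 195 and 173 ± 66.6 (SD, n = 6), with overlapping libraries.

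Ttn encodes titin, the longest of the transcripts, and took the most counts of the 10 genes in every library. It held 2031 to 5513 CPM in naive libraries, with a median of 3916, and 3938, 2967 and 2000.0 CPM in day 1 contralateral libraries. Day 1 injured libraries held 3799, 1755 and 5552 CPM, day 7 contralateral libraries 1523, 1815 and 2077, and day 7 injured libraries 2943, 1534 and 2318. Ttn was the member for which the day 7 contralateral knees had the lower mean (1805 CPM ± 277, against 2265 ± 706 in injured ones, SD, n = 3), and the libraries of both groups overlapped. Mylpf, the fast regulatory light chain of myosin, ranged from 154 to 506 CPM in naive and from 128 to 218 CPM in day 7 injured libraries. Its lowest value, 71.2 CPM, came from day 7 contralateral replicate 1, far below the other 2 libraries of that group (277 and 280.0 CPM).

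Among the heavy chains, Myh4 was the highest in every group. Naive libraries held 978 to 3710 CPM of Myh4, with a median of 1969, day 1 injured libraries 2508, 1178 and 3778, and day 7 injured libraries 1547, 725 and 1344. Day 1 contralateral libraries held 3405, 1749.9 and 1653 CPM, and day 7 contralateral libraries 1166, 1149 and 1591. The day 7 injured libraries overlapped the naive and the day 1 injured ones. Myh1 ranged from 84.1 to 723 CPM, both ends being naive libraries.

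Myh2, the type IIa heavy chain, had the widest span of the 10 genes, 11.7-fold. In naive libraries it ran from 50.6 to 314 CPM, with a median of 229, and in day 1 contralateral libraries it was 161, 136 and 26.8 CPM. It was 132, 54.0 and 252 CPM in day 1 injured, 122, 96.2 and 93.3 in day 7 contralateral, and 65.5, 34.3 and 58.3 in day 7 injured libraries. All 3 day 7 injured values lay below all 3 day 7 contralateral values, whereas naive replicates 5 and 6, at 50.6 and 63.6 CPM, lay within the day 7 injured range. Myh7, the slow heavy chain, held only 5.73 to 35.7 CPM in naive libraries, with a median of 20.05, and 10.3, 4.43 and 5.5 CPM in day 7 injured ones, which overlap.

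By TPM, Myh4 made up 80.0% of the 4 heavy chains on average over the 18 libraries (67.5% to 88.5%), Myh1 13.6% (7.46% to 22.4%), Myh2 5.36% (1.45% to 10.5%) and Myh7 1.06% (0.426% to 3.50%). The mixture was thus of fast type in every library. The share of Myh2 was 6.96% ± 3.01 (SD, n = 6) in naive libraries, 6.26% ± 1.55 in day 7 contralateral and 3.54% ± 0.0847 in day 7 injured ones (SD, n = 3 each). The day 7 injured shares, 3.48% to 3.63%, were the most alike of any group and lay below all 6 naive shares (3.71% to 10.5%) and all 3 day 7 contralateral shares (4.66%, 6.36% and, in replicate 1, 7.76%). They stood among the day 1 contralateral shares, which ran from 1.45% to 6.24%. These shares depend on the division of reads between related heavy chains described above, and no test was made on them. Pools also held more mice at day 7 than at day 1, and the part of this in the spread was not tested.

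**Figure D2:**
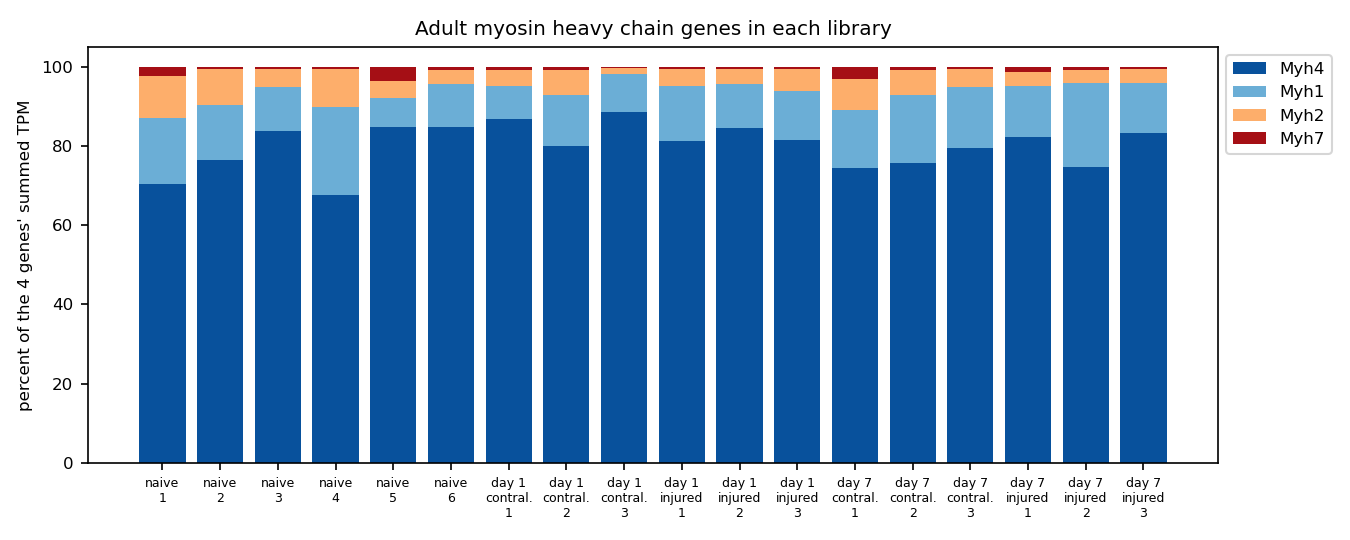
Percentage of the TPM of Myh4, Myh1, Myh2 and Myh7 taken by each heavy chain in each of the 18 libraries, grouped by condition. Myh4 takes 67.5% to 88.5% in every library, and Myh2 3.48% to 3.63% in the 3 day 7 injured libraries.

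At day 7 after rupture the sarcomere genes stood lower in injured knees than in naive knees, but little of this passed the test. All 10 members had log2 fold changes below 0 with a median of -0.78, against -0.04 over the 21117 genes tested. The members vary together, so these are not 10 independent values. Myh2 fell by 1.87 on the log2 scale (± 0.68, SE, adjusted p = 0.0489, quasi-likelihood test of edgeR with Benjamini-Hochberg adjustment) and was the single member called, where a call needed an adjusted p no higher than 0.05 and a change of 1.5-fold or more. Of all genes tested, 16.6% were called in this comparison, 2206 higher and 1291 lower. The single call among 10 members was not tested against these shares. Myh7 (-1.66 ± 0.61, SE, edgeR adjusted p = 0.0521) and Acta1 (-1.06 ± 0.40, adjusted p = 0.0551) did not pass. Of 24 alternatives, Myh7 was called in 9 and Acta1 in 8, against 11 for Myh2. The other 7 members had log2 fold changes between -0.90 (Mylpf) and -0.66 (Tnnt3), with edgeR adjusted p from 0.117 to 0.257. No member had all 3 day 7 injured libraries below all 6 naive libraries, as 10.8% of genes did. The call of Myh2 was kept in 5 of the 15 fits that each left out 1 library, those without naive replicate 5 or 6, day 1 contralateral replicate 3, or day 1 injured replicate 2 or 3, and lost without any other library. Its log2 fold change ran from -2.07 to -1.59 over 24 alternatives, with adjusted p from 0.0232 to 0.164.

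Against injured knees at day 1, day 7 injured knees again had lower values for all 10 members, which vary together. The median log2 fold change was -0.99, against -0.002 over all genes. Acta1 fell by 1.30 on the log2 scale (± 0.44, SE, edgeR adjusted p = 0.0433) and was the only member called, where 15.4% of all genes tested were. The other 9 members did not pass, with log2 fold changes from -1.45 (Myh2) to -0.69 (Ttn) and edgeR adjusted p from 0.116 (Mylpf) to 0.325 (Myh1). In no member were the 3 day 7 libraries all below the 3 day 1 libraries, as 17.5% of genes were. Acta1 lost its call without naive replicate 1 or 2, day 1 contralateral replicate 2, day 1 injured replicate 1 or 3, or day 7 injured replicate 2 or 3. Without day 1 injured replicate 2, the library with the least muscle RNA of its group, 5 members were called (Acta1, Ckm, Tnnt3, Tnni2 and Mylpf). This comparison and the one with naive knees share the day 7 injured libraries.

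**Figure D3:**
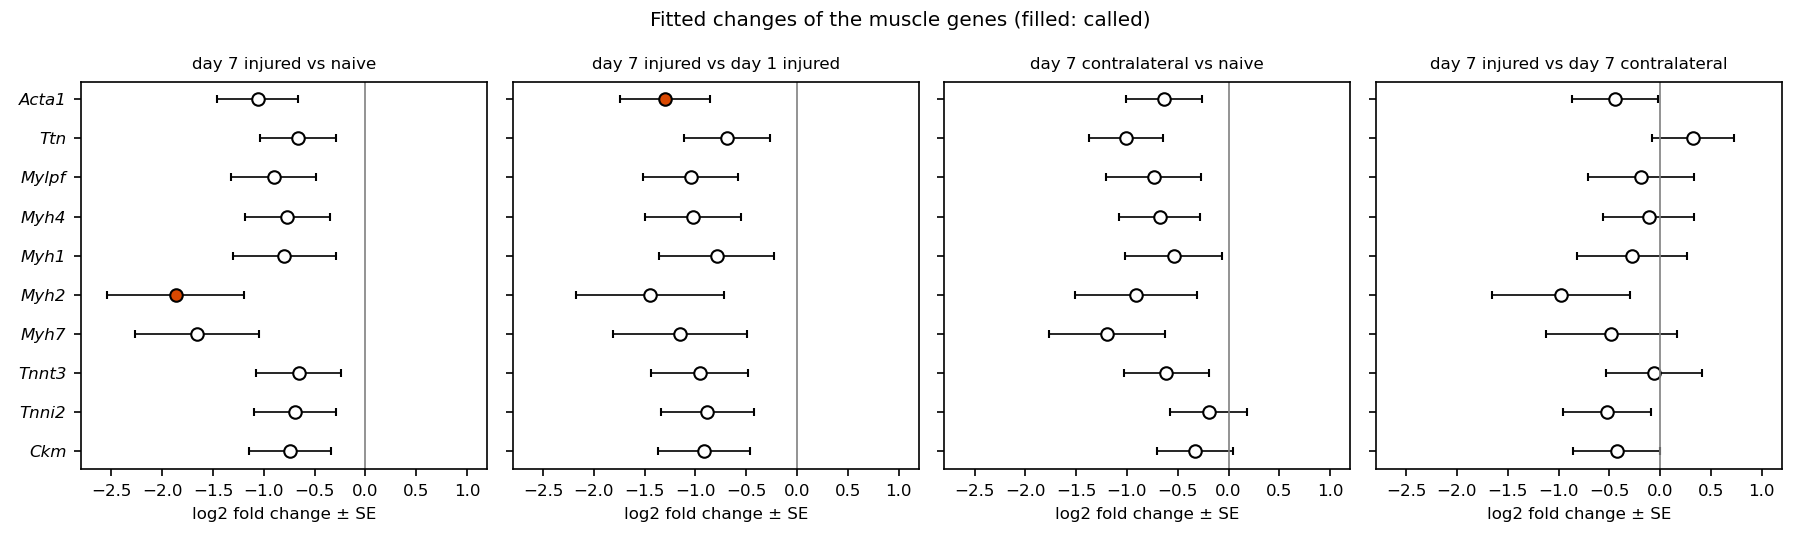
Log2 fold change with its standard error for each of the 10 genes in the 4 comparisons that involve day 7 knees (edgeR, zero line marked), with filled points for genes called. All 10 genes lie below 0 in day 7 injured against naive and against day 1 injured knees, and the filled points there are Myh2 (-1.87) and Acta1 (-1.30).

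No member was called between the contralateral knees at day 7 and naive knees, and the libraries of both groups overlapped for each member. The 10 log2 fold changes were all below 0, from -1.19 (Myh7) to -0.20 (Tnni2), with a median of -0.66 against -0.03 over all genes. These genes vary together and are not 10 independent values. Without day 7 contralateral replicate 1 the median was -0.48, with Myh7 at -1.52, Ttn at -0.90 and Mylpf at -0.33. With all libraries, Ttn had the smallest adjusted p of the members (log2 fold change -1.01 ± 0.36, SE, edgeR adjusted p = 0.256), and was the only member with an unadjusted p under 0.05. EdgeR called 0% of the genes tested in this comparison, in which 3220 had an unadjusted p under 0.05. DESeq2 called 18 genes higher and 13 lower, and DESeq2 and limma-voom called 0 members.

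Between both knees of the day 7 mice, 9 of 10 members were lower in the injured knee, with a median log2 fold change of -0.35, and of -0.33 without day 7 contralateral replicate 1. Leaving out a single library turned the direction of 3 of them. Without day 7 injured replicate 2, Myh4 stood at 0.16, Tnnt3 at 0.14 and Mylpf at 0.03, and all 3 were also above 0 without day 7 contralateral replicate 3, as were Tnnt3 and Mylpf without day 7 contralateral replicate 2. None was called and none had an unadjusted p under 0.05 by edgeR, while 12.6% of all genes tested were called. DESeq2 and limma-voom called 0 members as well. Myh2 (-0.97 ± 0.68, SE, edgeR adjusted p = 0.358) was the member whose 3 injured libraries all lay below the 3 contralateral libraries, as 14.3% of genes did, also without day 7 contralateral replicate 1. Ttn stood at 0.33 ± 0.40 (SE, edgeR adjusted p = 0.632). When only the 6 libraries compared entered the fit, Myh2 was called.

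At day 1 nothing was called in the members. Injured against naive knees gave a median log2 fold change of 0.16 over the 10 genes (7 above 0), contralateral against naive knees -0.18 (3 above 0) and injured against contralateral knees 0.28 (9 above 0). Adjusted p ranged from 0.866 to 0.9998 in edgeR, no member had an unadjusted p under 0.05, and DESeq2 and limma-voom called 0 members. EdgeR called 0% of all genes in each of these comparisons, with 956, 555 and 1382 genes at an unadjusted p under 0.05, and DESeq2 called 15 genes lower in the first, 1 higher and 1 lower in the second and 0 in the last. The injury effect at day 7 minus that at day 1 was below 0 in 9 of 10 members, with a median of -0.58, and none was called by edgeR (adjusted p from 0.498 to 0.996), none had an unadjusted p under 0.05 and DESeq2 and limma-voom called 0, where 3.77% of all genes were called. Leaving out 1 library moved that median by over 1.5 times in 6 cases. It was -0.07 without day 1 injured replicate 3, -0.34 without day 1 contralateral replicate 3 or day 7 injured replicate 2, -0.88 without day 7 injured replicate 1, -0.92 without day 1 contralateral replicate 1 and -0.97 without day 1 injured replicate 2. It was -0.50 without day 7 contralateral replicate 1, and no member was called in any of these fits.

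The rest of the muscle programme was described with further lists. Of 31 other structural genes of the sarcomere, 6 fell in day 7 injured against naive knees and none rose, with a median log2 fold change of -0.88, where 16.6% of all genes tested were called. The 6 were Myl2 (-2.23 ± 0.65, SE) and Myl3 (-2.14 ± 0.63), light chains of slow and ventricular muscle, Myoz2 (-1.77 ± 0.62), a Z-disc protein of slow fibres, Nrap (-1.29 ± 0.33), an anchor in myofibril assembly, Trim63 (-1.20 ± 0.41), a ubiquitin ligase of muscle breakdown, and Mylk2 (-1.11 ± 0.35), which phosphorylates the light chain. Nrap had the smallest adjusted p of them (0.00817, edgeR). Nrap held 59.5 to 148 CPM in naive libraries, with a median of 128, and 55.2, 30.0 and 47.9 CPM in day 7 injured libraries, all below every naive library. Myl2 held 2.24 to 11.8 CPM in naive and 2.63, 0.886 and 1.25 in day 7 injured libraries, which overlap. The count of 6 ran from 0 to 10 over the alternatives. It was 0 without day 7 injured replicate 2, 1 without day 7 injured replicate 3, 10 without naive replicate 5, and 1 with limma-voom.

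Of the 14 genes of muscle energy metabolism, Ckmt2, the sarcomeric mitochondrial creatine kinase, fell (-1.63 ± 0.59, SE, edgeR adjusted p = 0.0494) and the list had a median of -0.59. Ckm, the cytosolic enzyme of the same shuttle and a member of the set, stood at -0.74 (adjusted p = 0.179). Ckm held 452 to 1288 CPM in naive libraries, with a median of 901, and 721, 309 and 569 CPM in day 7 injured libraries, within or below the naive range. The call of Ckmt2 was kept in 4 of the 15 fits that each left out 1 library (without naive replicate 5, day 1 contralateral replicate 3, or day 1 injured replicate 2 or 3), and was lost with limma-voom. None of 18 genes of calcium handling was called, with a median of -0.41, and its most abundant gene was Atp2a1, the calcium pump of fast fibres. Of the slow-fibre list, 3 of 10 fell (Myl2, Myl3 and Myoz2), with a median of -1.14 (none without day 7 injured replicate 2 or 3, and 6 without naive replicate 6), and of the fast-fibre list 1 of 14 (Myh2), with a median of -0.62. With limma-voom both counts were 0. Of all genes tested, 16.6% were called. The energy count was 0 in 10 of the 15 fits that left out 1 library, but 5 without naive replicate 5, 4 without day 1 injured replicate 2 and 2 without day 1 injured replicate 3. The lists overlap in genes, and the difference between slow and fast lists was not tested.

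Against day 1 injured knees, 4 of the 31 structural genes fell at day 7 (Trim63 -1.64, Nrap -1.37, Mylk2 -1.33 and Pdlim3 -1.09). So did 2 of the 14 energy genes (Ckmt2 -1.85 and Cox6a2, a muscle subunit of cytochrome oxidase, -1.24). Of all 21117 genes tested, 15.4% were called, 1910 higher and 1347 lower, and the lists were not tested against these shares. Both list counts were 0 without day 1 injured replicate 3 or day 7 injured replicate 2. Without day 1 injured replicate 2 they were 10 and 6, without day 7 injured replicate 3 they were 1 and 0, and the energy count was 0 without day 1 injured replicate 1. Between both knees at day 7 edgeR called 0 genes of the structural, energy, slow-fibre and fast-fibre lists, also without day 7 contralateral replicate 1. When only the 6 libraries compared were fitted, 1 gene of the energy list and 1 of the fast-fibre list were called. In day 7 contralateral against naive knees edgeR called 0 of any list.

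Of 12 genes of developing and regenerating muscle tested, 2 rose and none fell between the knees at day 7, where 12.6% of all genes were called, and 1 rose and none fell against naive knees, where 16.6% were. Over the alternatives the counts ran from 0 to 4 and from 0 to 3. In day 7 injured knees Chrna1, the α subunit of the muscle acetylcholine receptor, stood at 2.86, 2.53 and 3.10 CPM against 0.701, 1.38 and 1.01 CPM in the contralateral knees. It rose by log2 1.42 ± 0.40 (SE, edgeR adjusted p = 0.0181) between the knees, and by 0.90 ± 0.32 against naive knees (adjusted p = 0.0466), where libraries ran from 0.819 to 2.62 CPM. The call against naive knees was kept in 5 of the 15 fits that each left out 1 library, those without naive replicate 4, day 1 contralateral replicate 2 or 3, or day 1 injured replicate 2 or 3. The call between the knees was kept in 15 of 18 such fits, and was lost without day 7 contralateral replicate 1 or 3 or day 7 injured replicate 3. Myog, the transcription factor myogenin, rose between the knees by 1.46 ± 0.48 (SE, edgeR adjusted p = 0.0400), from 0.623, 0.267 and 0.473 CPM to 1.5, 0.823 and 1.29 CPM, a call kept in 13 of 18 such fits and lost without naive replicate 2, day 7 contralateral replicate 2 or 3, or day 7 injured replicate 1 or 3. Both genes were low, at 0.267 to 3.10 CPM in the knees of the day 7 mice. Embryonic Myh3 held 2.54, 2.22 and 1.16 CPM in day 7 injured libraries and 0.236 to 0.401 in contralateral ones, and was not called (edgeR adjusted p = 0.194).

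Against day 1 injured knees, where 15.4% of all genes were called, 3 of the 12 were. Myl4, an embryonic and atrial light chain, rose (0.79 ± 0.23, SE), while Actc1, cardiac α-actin (-2.48 ± 0.70), and the regulator Myf6 (-1.18 ± 0.34) fell. This list had no call in that comparison without day 1 injured replicate 3 or day 7 injured replicate 2. Actc1 held 67.6, 17.2 and 165 CPM in day 1 injured and 22.1, 10.7 and 11 CPM in day 7 injured libraries, which overlap. Sln, an inhibitor of the calcium pump, was called between the knees at day 7 from values of 0.862, 0 and 0.601 CPM against 0, 0.0891 and 0, so that no fold is given. Its call was lost without day 7 contralateral replicate 1 or 3 or day 7 injured replicate 1 or 3 and with limma-voom, and without naive replicate 4 the gene did not pass the filter on low counts.

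The genes of the cardiac list, which leaves out Actc1, were low throughout. The summed level of the 9 cardiac genes was 6.88 to 11.2 CPM in all libraries, with Nppb and Myl7 at 3 counts or fewer in each, and Myl4 the most abundant. Only 3 of them passed the filter on low counts, with a median log2 fold change of -0.47 and none called in day 7 injured against naive knees, and a median of -0.75 with Myl4 called higher against day 1 injured knees. Of 10 smooth muscle and pericyte genes, led by Rgs5, 6 rose and none fell in day 7 injured against naive knees, with a median of 0.80, where 16.6% of all genes were called. Their summed level was 778 CPM ± 97.5 (SD, n = 3) in day 7 injured against 410 ± 56.1 (SD, n = 6) in naive libraries.

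**Figure D4:**
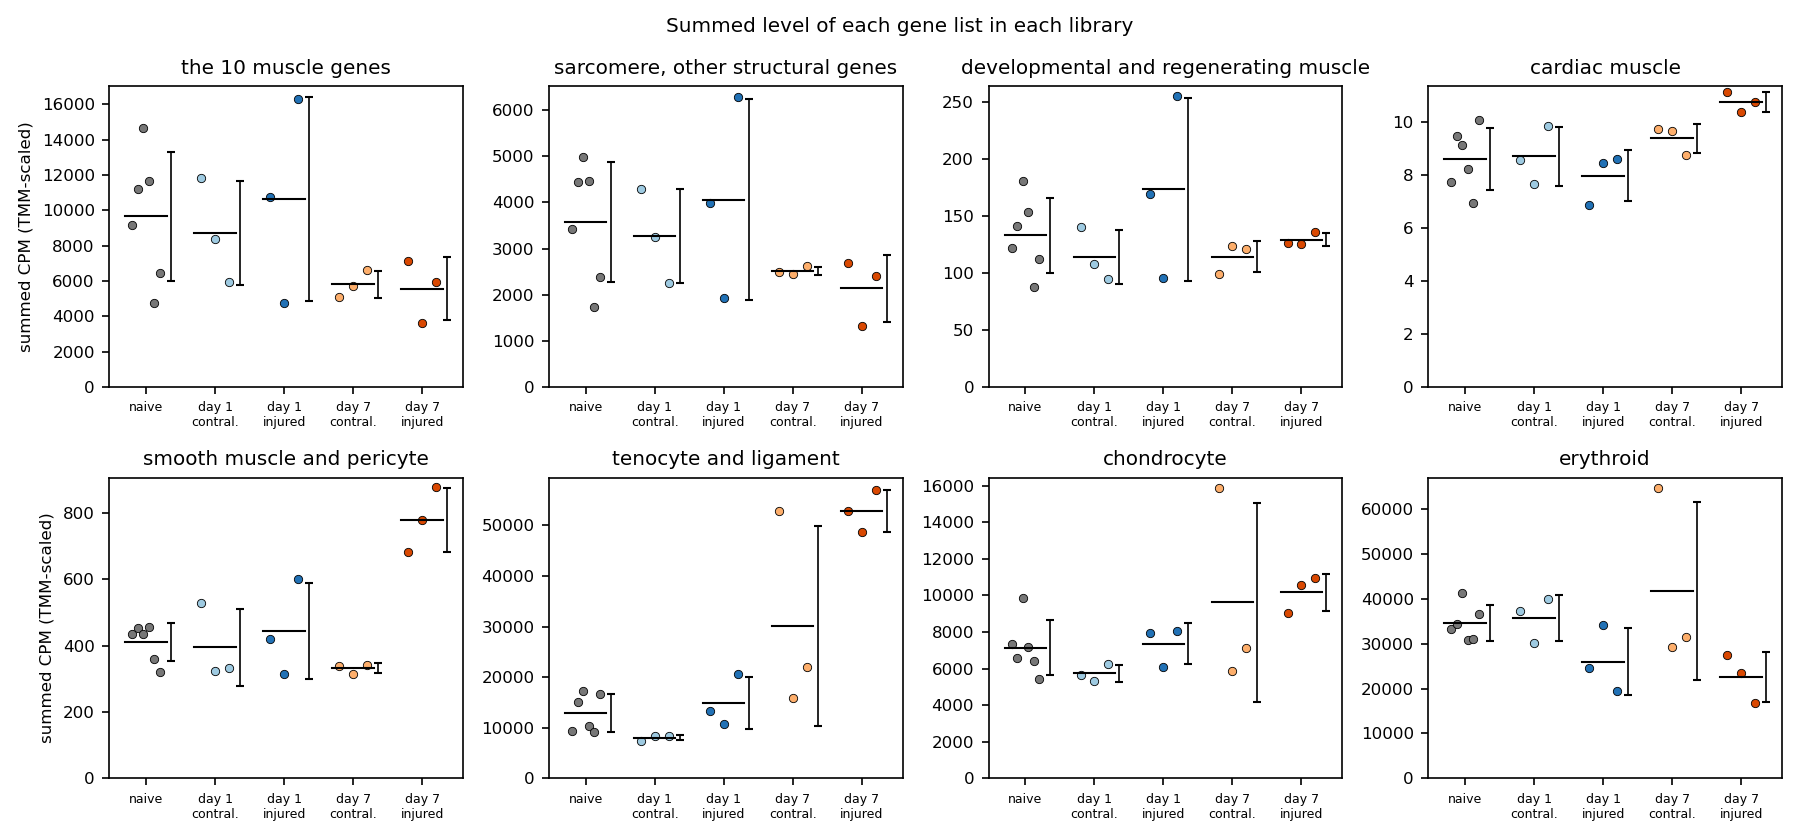
Summed CPM (linear axis from 0, scaled per list) of the 10 sarcomere genes and of 7 marker lists in the 18 libraries by group (points), with the horizontal line at the group mean and the bar at its SD. The sarcomere genes average 5547 CPM in day 7 injured and 9648 CPM in naive libraries, while the tenocyte list averages 52846 and 12977 CPM.

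Markers of other tissues moved in the same libraries. The tenocyte and ligament list, with Col1a1 as its most abundant gene, had 7 of 8 genes higher and none lower in day 7 injured against naive knees, with a median of 2.02. Tnmd, a tendon membrane protein, held 89.1, 82.5 and 93.3 CPM in day 7 injured and 4.15 to 13.2 CPM in naive libraries, which are far apart. Of 18 chondrocyte markers 4 rose and 2 fell. The chondrocyte list, led by Prg4 and Col2a1, summed to 5313 to 15868 CPM, so markers on this list were present in every library beside the muscle genes. Prg4 also leads the synovial fibroblast list, so the sum is not of genes particular to chondrocytes. The erythroid list had 5 of 9 genes lower (median -0.62) and the adipocyte list 4 of 8 lower (median -1.45), where 16.6% of all genes were called. The erythroid count was 2 without day 7 injured replicate 3, and 8 with protein-coding transcripts only. The adipocyte count was 1 without day 7 injured replicate 3, 2 without day 7 injured replicate 1 or 2 and with limma-voom, and 7 without naive replicate 5. The summed adipocyte level was 236 CPM ± 43.8 (SD, n = 3) against 575 ± 227 in 6 naive libraries. Against naive knees 4 of 9 synovial fibroblast and 3 of 8 endothelial markers also rose, and 2 of 10 neutrophil markers fell (0 to 3 over the alternatives). Between the knees at day 7, where 12.6% of all genes were called, 6 of 8 tenocyte genes rose. There 5 of 9 erythroid (0 to 8) and 4 of 8 adipocyte genes (0 to 6) fell. Against day 1 injured knees, where 15.4% were called, 7 of 8 tenocyte genes rose and 3 of 8 adipocyte genes fell (1 to 8). The part of these lists in the lower sarcomere values was not tested.

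Across the 18 libraries, the levels of some muscle lists varied with those of the members and those of others did not. The summed log2 level of the 10 members correlated with that of the other structural genes at Pearson's r = 0.98, with the energy genes at 0.95, with the calcium genes at 0.90 and with the developmental list at 0.79, but with the slow-fibre list at 0.02, in which Atp2a2, a pump of many tissues, is the most abundant gene. The value was -0.30 for cardiac and 0.12 for smooth muscle and pericyte genes, -0.33 for tenocyte, -0.14 for chondrocyte, -0.08 for erythroid, 0.60 for adipocyte, -0.61 for macrophage and -0.33 for synovial fibroblast markers. These are descriptions over 18 libraries that share groups. Pairs of members ranged from 0.34 for Myh1 with Myh7 to 0.96 for Ckm with Tnni2, with a median of 0.81.

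The 10 genes most alike to the members, among 15980 with a mean of at least 1 CPM, included Scn4a (r = 0.974), Ppp1r3a (0.973), Prkaa2, Eef1a2, Cacna1s, Cap2, Myoz1, Pygm and Myom1 (0.965). Scn4a is the sodium channel of the muscle membrane, Cacna1s the voltage sensor of its calcium release, Pygm muscle glycogen phosphorylase and Myom1 an M-line protein. Of the 10, 5 stood in the muscle lists, and all 10 were again the closest without day 1 injured replicate 3. By Spearman's rho, 4 of them were among the 10 closest.

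In their proportions to Ckm, 1 library differed from the others. Mylpf per Ckm count was 0.302 to 0.444 in 17 libraries and 0.0835 in day 7 contralateral replicate 1. There Tnnt3 per Ckm was 0.223 (0.439 to 0.702 elsewhere), Acta1 per Ckm 0.844 (1.22 to 1.78 elsewhere) and Ttn per Ckm 1.79 (2.85 to 5.47 elsewhere). Tnni2 per Ckm, 0.213, lay inside the range of the others (0.149 to 0.254). In this library the 10 most abundant genes took 42.5% of all counts, against 16.6% to 29.8% in the others. Its summed erythroid level was 64689.7 CPM, against 29335 and 31445 in the other 2 libraries of its group, and its tenocyte level 52745 against 15806 and 21959.8. The main transcript of Ckm, Ckm-201, took 97.5% of its counts. Without this library the day 7 contralateral knees still gave 0 members called against naive knees and against injured knees (edgeR). Acta1 per Ckm in day 7 injured libraries (1.24, 1.22 and 1.35) was below that of all 6 naive libraries (1.46 to 1.71), and no test was made on it. The minor heavy chains varied more, with Myh2 per Myh4 count from 0.0162 to 0.149 and Myh7 per Myh4 from 0.00367 to 0.0356 over the 18 libraries.

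**Figure D5:**
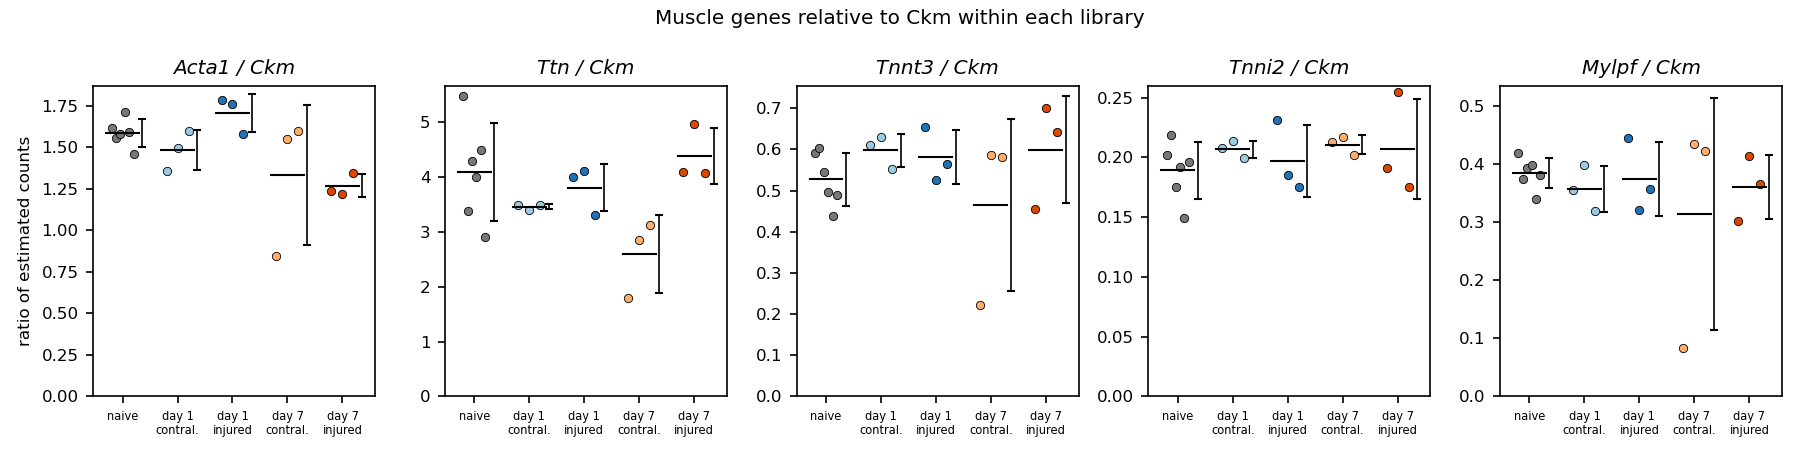
Ratio of the estimated counts of Acta1, Ttn, Tnnt3, Tnni2 and Mylpf to those of Ckm (linear axis from 0) in each of the 18 libraries by group (points), with the horizontal line at the group mean and the bar at its SD. Day 7 contralateral replicate 1 lies below all other libraries for each of them except Tnni2, with Mylpf per Ckm at 0.0835 against 0.302 to 0.444.

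The counts of single transcripts give estimates of the forms present. Ttn was divided among 25 transcripts, of which Ttn-205 took 42.8%, Ttn-204 26.7% and Ttn-201 20.7% on average over the libraries. Tnnt3, which is known for its many spliced forms, had 27 transcripts, led by Tnnt3-201 (43.2%) and Tnnt3-224 (33.3%). Ckm-201 took 72.3% of the Ckm counts, Ckm-202, which is annotated as a processed transcript without a protein, 14.7%, and Ckm-203 13%. Mylpf-201 and Mylpf-206 took 68.7% and 30.3% of Mylpf. The forms of Myh2 and Myh1 were less stable. Myh2-203 took 71.8% to 99.3% of Myh2 in naive, 5.82% to 98.6% in day 7 contralateral and 37.4% to 99.998% in day 7 injured libraries. Myh1-202 took 0.0153% to 49.6% of Myh1 in naive, 0.717% to 4.55% in day 7 contralateral and 27.8% to 55.2% in day 7 injured libraries. Gene counts sum over these forms. All these divisions are estimates of the pseudo-aligner.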

How the data were processed

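RNA of 18 cartilage pools was sequenced as total RNA depleted of ribosomal RNA. After trimming, the authors ran Kallisto against mouse GRCm38 transcripts (the submitters' processing notes name kallisto, DESeq2 and GRCh38) and deposited estimated counts per transcript, not normalized. The TPM and the effective length score deposited by the authors beside them were used for levels between genes and for a length offset. Of 137436 transcripts, 135107 (98.3%) matched GENCODE, and the others were left out. Estimated counts were summed per gene and rounded.

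Counts were normalized by TMM and tested in edgeR 4.0.16 (R 4.3.3) by quasi-likelihood, with its filter on low counts and a mean per group. Where day 7 contralateral knees were not compared, the fit held 15 libraries (21117 genes), and elsewhere 18 (21262 genes). P-values were adjusted over all genes by the Benjamini-Hochberg method, and calls needed an adjusted p of at most 0.05 and at least 1.5-fold. DESeq2 1.42.0, limma-voom (limma 3.58.1), other filters and scalings, and leaving out each library were tried. Likeness used log2(CPM + 0.5). All members, every called gene of a list or else its most abundant, and the 10 most alike genes were eligible to be named. Of the most alike genes, 1 is not reported here. The members and lists were chosen with earlier results of these data known. The library that the study removed is not named in the sources used here, so all 18 were kept. Promoters came from RefSeq tables (GRCm38.p6), with 8 of 10 members matched, and coding sequence from GRCm38. Replicate numbers are in accession order and pair nothing.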

Additional observations from a re-analysis of the deposited data

Results flagged for a closer look

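Of 23 quantities checked in the 6 naive libraries, Myh3, the embryonic heavy chain, stood apart in naive replicate 4, at 6.19 CPM against 0.0398 to 0.690 CPM in the other 5. A check of this kind picks out about 1 in 20 groups by chance. The same library held the highest Myh1 (723 CPM) and Myh2 (314 CPM) of all 18.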

How the results depend on the processing

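The number of members called in day 7 injured against naive knees was 1 and became 3 without the filter on low counts, with the DESeq2 Wald test, with protein-coding transcripts only and with all 18 libraries in the fit. It was 0 with a length offset, a robust fit or an adjusted p of at most 0.01, and 0 to 3 when 1 library was left out. Against day 1 injured knees the count was 1, became 0 with limma-voom, the length offset, the robust fit or the stricter limit, and ran from 0 to 5 when 1 library was left out. Between the knees at day 7 it was 0, and 1 (Myh2) when the 6 libraries compared were fitted alone. The fit with limma-voom put Mylpf at a log2 fold change of 0.0115 between the knees, against -0.19, and when 1 library was left out Myh4 ran from -0.33 to 0.16, Tnnt3 from -0.30 to 0.14 and Mylpf from -0.57 to 0.0736. The summed level spanned 12.9-fold by TPM and 4.52-fold by CPM. Of 1020 values of single genes under alternatives, 966 kept direction and side of the threshold, 23 lost and 22 gained a call, and 9 reversed. The causes of these changes were not tested. No scaling moved the median of all genes by more than 0.1. With 3 pools in a group and mice shared between libraries, the precision of each comparison is limited more by the spread between pools than by counts, of which the lowest of a member was 70 (Myh7). The study's own tests took account of samples from the same mouse pool, which the fits here did not. No paired analysis was made here because the labels do not tie libraries to mice.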
